A study of Mus musculus with 15 samples.

Results

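The 9 genes of the Hoxd cluster were followed in mouse embryonic fibroblasts of 4 genotypes. Members were all array probes whose gene name was Hoxd1, Hoxd3, Hoxd4, Hoxd8, Hoxd9, Hoxd10, Hoxd11, Hoxd12 or Hoxd13. These came to 12 probes for 9 genes, of 41174 probes on the array, with a pair of probes each for Hoxd3, Hoxd9 and Hoxd13. Where a gene had a pair, probe 1 is the brighter. The cultures were wild type (4 arrays), p27 knock-out lacking the inhibitor of cyclin-dependent kinases made from Cdkn1b (4 arrays), stathmin knock-out lacking the microtubule destabiliser made from Stmn1 (4 arrays) and double knock-out lacking both (3 arrays). All were of C57B6 strain background and derived from embryos at 13.5 days post coitum. They were taken at passage 3, at high confluence and after 24 h without serum. The labels name the arrays of a genotype biological replicates, do not say whether each came from its own embryo or from which tissue of the embryo, and give no other allele or agent. Every array set its own sample, in red, against a common pool of fibroblast RNA, in green, and values are log2 ratios of sample over that pool.

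Hox genes encode homeodomain transcription factors that give cells of the embryo their position along the body axis and along the limb. Genes at the 3′ end of the cluster, from Hoxd1, are switched on early and far forward, and genes at the 5′ end, up to Hoxd13, late and towards the tail and the hand or foot plate. In the limb, Hoxd genes are read under separate regulatory landscapes on either side of the cluster, and cultured fibroblasts keep much of the Hox pattern of the site they came from.

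The samples were checked before the members were read. A Stmn1 probe lay at a log2 ratio of -2.98 to -2.64 on the 4 stathmin knock-out arrays and of -2.82 to -2.68 on the 3 double knock-out arrays, against 0.41 to 1.49 on all arrays carrying the gene. The other Stmn1 probe overlapped between genotypes, at -0.85 to -0.06 in stathmin knock-out, -0.41 to -0.04 in double knock-out, -0.50 to 0.33 in wild type and -0.64 to 0.80 in p27 knock-out. Of 3 Cdkn1b probes, 1 was bright enough to be tested and its ranges overlapped between genotypes, from -1.10 to 0.05 in p27 knock-out, -1.36 to 0.19 in double knock-out and -0.22 to 0.93 in wild type; whether it lies in the deleted part is not known. Of the dimmer probes, 1 lay at -0.20 to -0.10 in p27 knock-out and -0.18 to -0.08 in double knock-out, below 0.22 to 0.36 in wild type, with stathmin knock-out at -0.13 to 0.53; the other overlapped between all genotypes. All 10 fibroblast markers were well above background on every array. Between 59.3 and 78.9% of an array's spots had a sample signal well above background. Wild type 3 and 4 were alike (r = 0.837 across genes, against -0.467 to 0.654 for other pairs of arrays), and the tests were repeated with the pair averaged. Each genotype kept its own place on the slides, and effects of place and of genotype cannot be told apart. In whole cultures, fewer cells of a type and less RNA per cell cannot be told apart either.

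RefSeq lists a start and its upstream sequence for all 9 genes, all on the plus strand of mouse chromosome 2 (GRCm38.p6), in 10 entries because Hoxd11 has a pair. From the Hoxd13 start, the Hoxd10 start lay 23.7 kb away, the Hoxd8 start 36.4 kb and the Hoxd1 start 94.8 kb. The listed Hoxd3 model reaches across Hoxd4, and the Hoxd10 model overlaps Hoxd11, so a probe in the shared stretch could read either gene. The 250 bases before each start were searched on both strands for 5 motifs, none of which contains another. The E-box CACGTG was in 4 of the 10 entries, against 6.02% of 32851 promoters of the same length. The box CCAAT was in 7 of 10, against 33.8%, and the nuclear receptor half-site AGGTCA was in 4 of 10, against 14%. The box TATAAA was in 2 of 10, against 12.4%, and the HOX-PBX site TGATNNAT was in 1 of 10, against 7.68%. The 4 entries with CACGTG belong to Hoxd10, Hoxd11 and Hoxd13, which moved together between cultures, and to Hoxd1, which did not move with them. They are shown here with CACGTG in capitals, as chr2:74667975-74668224 (Hoxd13), chr2:74682073-74682322 (Hoxd11, the inner entry), chr2:74691641-74691890 (Hoxd10) and chr2:74762730-74762979 (Hoxd1).
Hoxd13: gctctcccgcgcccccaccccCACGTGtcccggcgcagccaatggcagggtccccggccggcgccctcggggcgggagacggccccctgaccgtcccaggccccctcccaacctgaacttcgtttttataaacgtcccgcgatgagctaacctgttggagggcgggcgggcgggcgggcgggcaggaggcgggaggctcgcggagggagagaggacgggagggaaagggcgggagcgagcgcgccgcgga
Hoxd11: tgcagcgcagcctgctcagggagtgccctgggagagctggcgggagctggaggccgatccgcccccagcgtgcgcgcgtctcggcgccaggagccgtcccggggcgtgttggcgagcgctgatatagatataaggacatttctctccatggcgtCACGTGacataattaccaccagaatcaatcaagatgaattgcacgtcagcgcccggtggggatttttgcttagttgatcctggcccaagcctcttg
Hoxd10: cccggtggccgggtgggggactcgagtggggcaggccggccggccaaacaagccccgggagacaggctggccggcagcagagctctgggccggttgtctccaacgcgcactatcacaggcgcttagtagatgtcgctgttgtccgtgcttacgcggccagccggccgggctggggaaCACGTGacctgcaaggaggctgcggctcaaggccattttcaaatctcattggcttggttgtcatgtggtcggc
Hoxd1: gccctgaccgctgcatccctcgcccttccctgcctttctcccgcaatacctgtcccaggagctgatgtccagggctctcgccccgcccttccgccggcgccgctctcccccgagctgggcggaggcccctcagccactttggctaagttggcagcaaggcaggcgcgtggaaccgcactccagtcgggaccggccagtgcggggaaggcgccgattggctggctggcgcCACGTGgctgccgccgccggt

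In these 4 windows, CACGTG begins 229 bases before the start in Hoxd13, 96 in Hoxd11, 73 in Hoxd10 and 21 in Hoxd1. The windows held 60.4 to 74.4% G and C and 20 to 31 CG pairs, against medians of 52.4% and 6 over all promoters. Windows without CACGTG were mixed. Hoxd4, Hoxd8 and the other Hoxd11 entry were poorer, at 40.4, 44.4 and 44.8% and 3, 6 and 2 CG pairs. Hoxd3 had 49.2% and 12 CG pairs. Hoxd9 and Hoxd12, at 65.2 and 55.6% and 13 and 10 CG pairs, were above both medians. A letter match is a description, and binding was not measured. The shares over all promoters were not matched for G and C content. Whether CACGTG has a part in the pattern of Hoxd10, Hoxd11 and Hoxd13 was not tested.

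Hoxd4, Hoxd8, Hoxd9, Hoxd10, Hoxd11 and Hoxd13 were well above background on 15 of 15 arrays with every probe. The brighter Hoxd3 probe was so on 13 arrays. Hoxd1 was so on 10, made up of all 4 wild-type and all 3 double knock-out arrays, 2 of 4 p27 knock-out arrays and 1 of 4 stathmin knock-out arrays. Hoxd12 reached 8 of 15 arrays and entered the tests through 3 stathmin knock-out arrays. The dimmer Hoxd3 probe, at 3 of 15, was not tested, which left 11 probes of all 9 genes. No Hoxd spot was saturated.

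**Figure D1:**
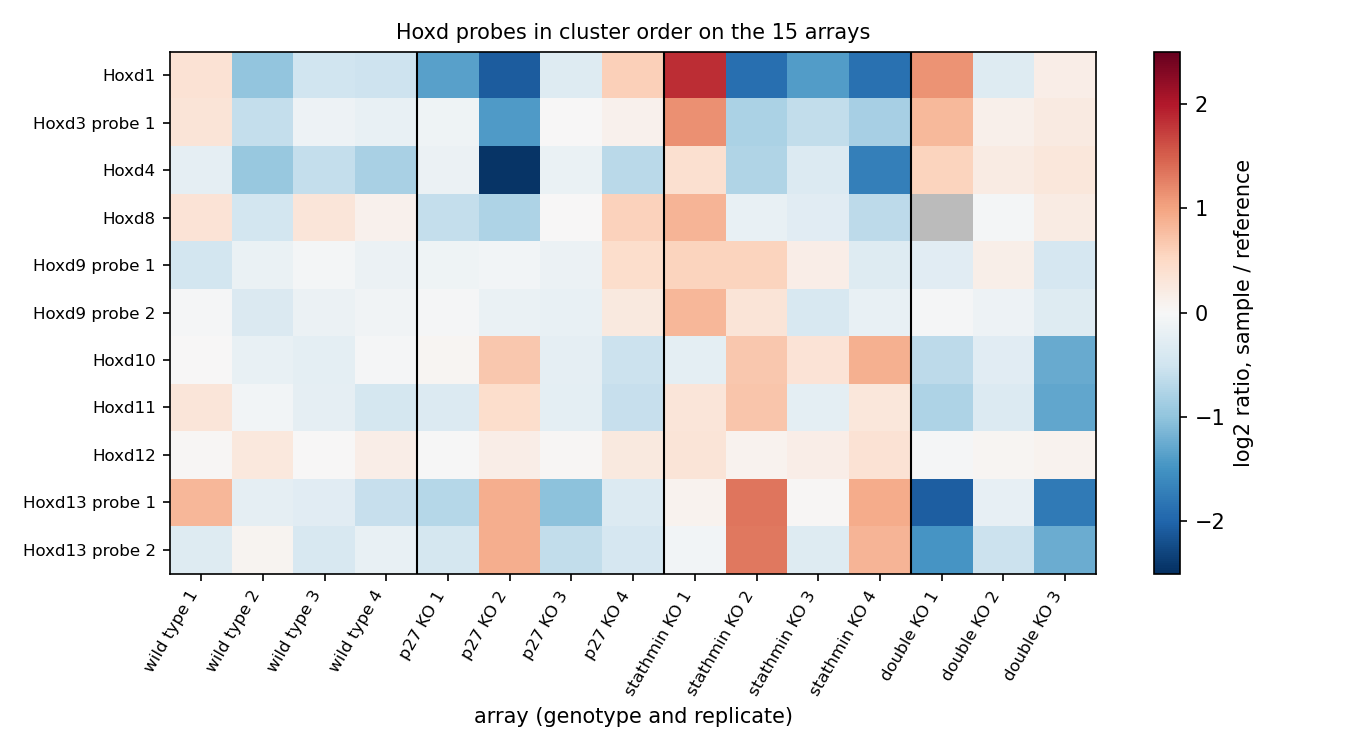
Log2 ratio of sample to reference for the 11 tested Hoxd probes (vertical axis, Hoxd1 at the top) on the 15 arrays (horizontal axis, grouped by genotype); red is above and blue below the reference, and grey is a spot left out. The upper and lower rows take opposite colours on several arrays, such as p27 knock-out 2, with Hoxd4 at -2.45 and Hoxd13 probe 1 at 0.91.

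Hoxd1 varied most. This gene of the anterior class had log2 ratios of 0.37, -0.99, -0.50 and -0.52 in wild type, -1.37, -2.07, -0.32 and 0.59 in p27 knock-out, 1.85, -1.89, -1.39 and -1.86 in stathmin knock-out, and 1.13, -0.33 and 0.17 in double knock-out. Stathmin knock-out 1 was the highest array and the other 3 of that genotype were among the 4 lowest, so this genotype spanned nearly the whole range. In scanner units, the Hoxd1 sample signal went from 79.7 on p27 knock-out 2 to 1595 on stathmin knock-out 1, while the reference signal of the same spot stayed between 267.9 and 360.3. The sample signal was well above background on only 1 of 4 stathmin knock-out and 2 of 4 p27 knock-out arrays. Low Hoxd1 ratios in these genotypes thus rest on signals near background, and their size is uncertain.

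Hoxd3, the next gene, lay at 0.32, -0.60, -0.13 and -0.18 in wild type, -0.11, -1.41, 0.01 and 0.11 in p27 knock-out, 1.15, -0.79, -0.62 and -0.83 in stathmin knock-out, and 0.80, 0.12 and 0.23 in double knock-out. The highest and lowest arrays were those of Hoxd1. Hoxd4 had -0.23, -0.95, -0.60 and -0.81 in wild type, -0.16, -2.45, -0.16 and -0.67 in p27 knock-out, 0.40, -0.76, -0.34 and -1.71 in stathmin knock-out, and 0.56, 0.21 and 0.29 in double knock-out. All 3 double knock-out arrays were above all wild-type and p27 knock-out arrays, and stathmin knock-out 1 lay within the double knock-out range. Hoxd8, at the middle of the cluster, went from -0.77 on p27 knock-out 2 to 0.85 on stathmin knock-out 1. Its spot on double knock-out 1 was marked as an outlier by the scanner software and left out, so its values rest on 14 arrays and on 2 in double knock-out.

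Hoxd9 and Hoxd12 varied little. Hoxd9 probe 1 went from -0.46 on wild type 1 to 0.56 on stathmin knock-out 1 and 2, and probe 2 from -0.41 on stathmin knock-out 3 to 0.83 on stathmin knock-out 1. The pair agreed in part (r = 0.686, permutation p = 0.00428, rho = 0.411, permutation p = 0.13, n = 15), and r was 0.303 without the 2 arrays farthest from the median. Hoxd12 stayed between -0.03 and 0.36, but a signal this near background can show little change.

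The posterior genes Hoxd10, Hoxd11 and Hoxd13, which pattern the limb and the hind end of the trunk, stood otherwise. Hoxd10 had log2 ratios of 0.02, -0.18, -0.25 and -0.03 in wild type, 0.04, 0.67, -0.23 and -0.54 in p27 knock-out, -0.24, 0.68, 0.34 and 0.88 in stathmin knock-out, and -0.66, -0.29 and -1.25 in double knock-out. Hoxd11 had 0.30, -0.06, -0.23 and -0.43 in wild type, -0.33, 0.45, -0.25 and -0.58 in p27 knock-out, 0.30, 0.70, -0.24 and 0.28 in stathmin knock-out, and -0.77, -0.34 and -1.30 in double knock-out. For both genes p27 knock-out 2 was the highest of its genotype and every double knock-out array lay below every stathmin knock-out array.

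Hoxd13, the last gene at the 5′ end, had by probe 1 0.84, -0.23, -0.28 and -0.58 in wild type, -0.72, 0.91, -1.03 and -0.35 in p27 knock-out, 0.09, 1.34, 0.02 and 0.93 in stathmin knock-out, and -2.07, -0.21 and -1.77 in double knock-out. Probe 2 read -0.32, 0.08, -0.40 and -0.19 in wild type, -0.44, 0.91, -0.61 and -0.43 in p27 knock-out, -0.06, 1.33, -0.33 and 0.85 in stathmin knock-out, and -1.47, -0.53 and -1.25 in double knock-out. The probes ordered the arrays alike (r = 0.898, permutation p = 1e-05, the smallest p the permutations can give; rho = 0.854, permutation p = 7e-05; n = 15; r = 0.826 without the 2 farthest arrays). They parted on wild type 1, where probe 1 was the highest of its genotype at 0.84 and probe 2 lay at -0.32.

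**Figure D2:**
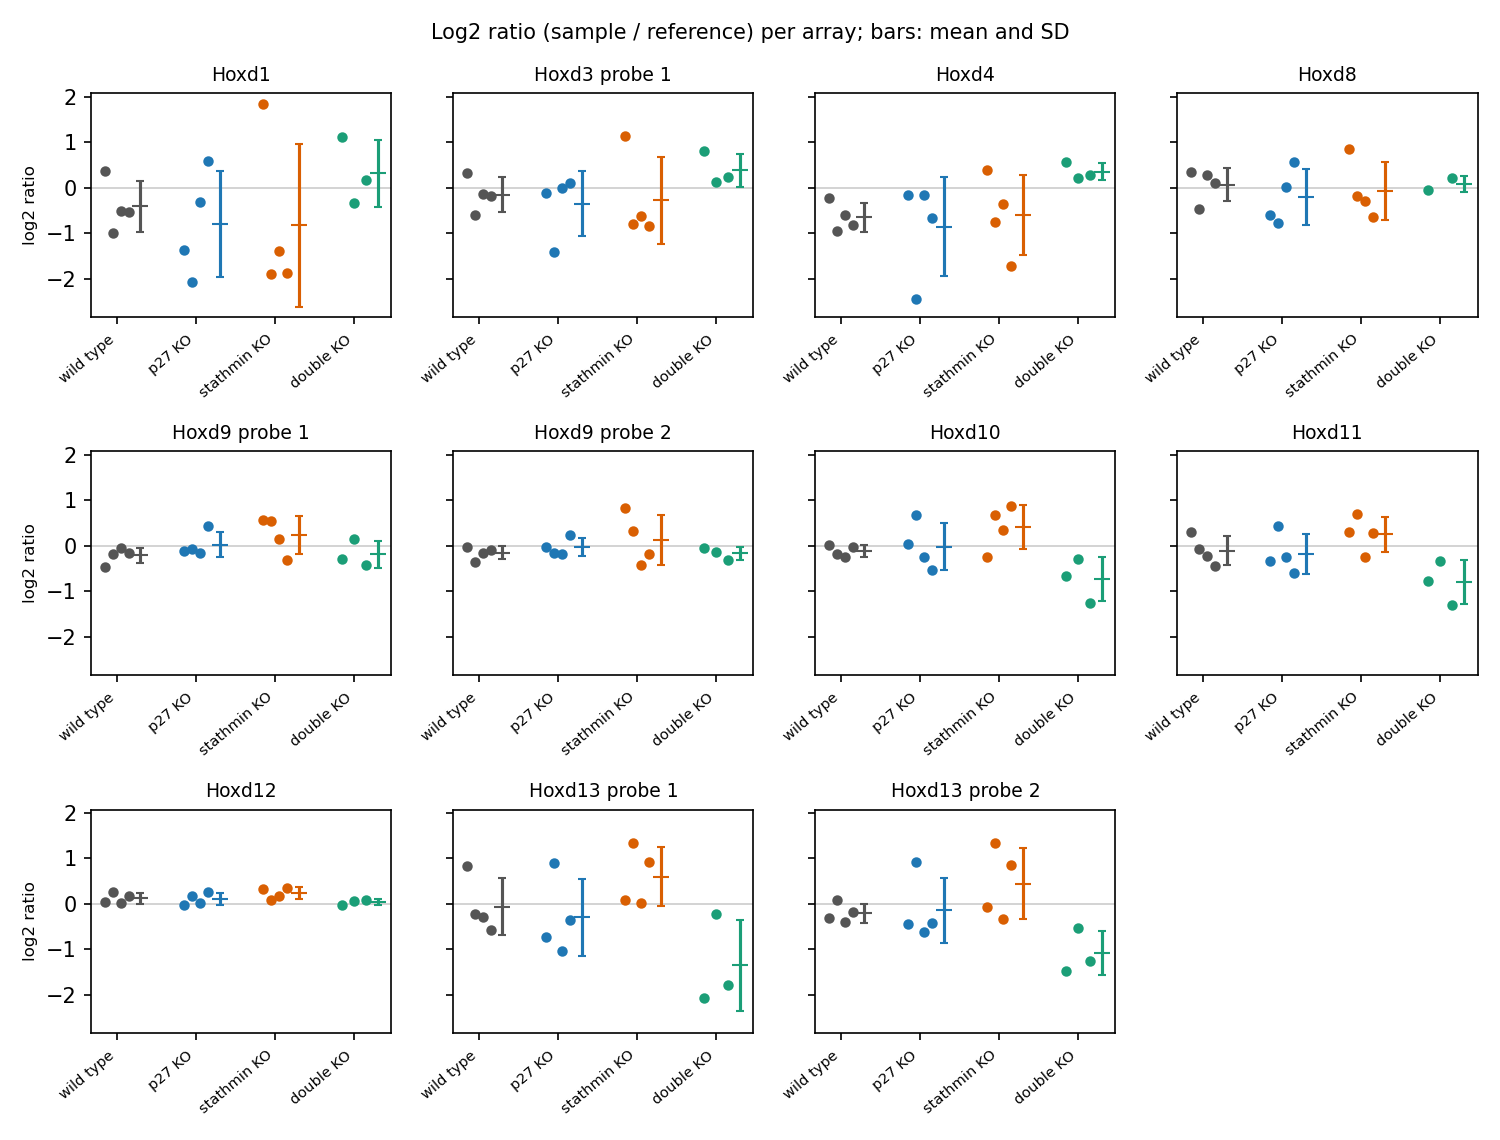
Log2 ratio of each tested Hoxd probe (vertical axis) by genotype (horizontal axis); points are arrays and bars beside them the mean and SD (n = 4, or 3 in double knock-out, 2 there for Hoxd8). For Hoxd10, Hoxd11 and Hoxd13 all double knock-out points are below all stathmin knock-out points, whereas Hoxd1 overlaps between all genotypes.

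Much of the variation of the 3′ genes lay between cultures of 1 genotype. The residual SD about the genotype means was 1.20 for Hoxd1, above 98.1% of all tested probes, with Hoxd1 near background on some arrays. It was 0.77 for Hoxd13 probe 1 (above 92.4%), 0.75 for Hoxd4 (91.9%), 0.67 for Hoxd3 (88.8%), 0.59 for Hoxd13 probe 2 (84.8%) and 0.53 for Hoxd8 (80.2%). Hoxd10 and Hoxd11, at 0.43 and 0.40, were nearer the median probe, at 0.32, and Hoxd9 was at it, with 0.30 and 0.32. Of the 11 probes, 8 were above the median; no test was made of that count. The share of the variance that lay within genotypes was 84.9% for Hoxd1, 82.2% for Hoxd3, 68.9% for Hoxd4 and 94% for Hoxd8. It was 47.3 to 49.8% for Hoxd10, Hoxd11 and Hoxd13, against a median of 83% over all probes. By this share Hoxd1 and Hoxd3 were near the median probe and Hoxd4 was below it.

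The spread was in the sample channel. Across arrays, the SD of the log2 signal was 1.18 in the sample channel of Hoxd1 and 0.13 in its reference channel. For Hoxd4 these were 0.80 and 0.06, for Hoxd10 0.62 and 0.10, and for Hoxd13 probe 1 0.92 and 0.14. The median probe had 0.36 and 0.10, so the reference spots of these genes were about as even as any.

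**Figure D3:**
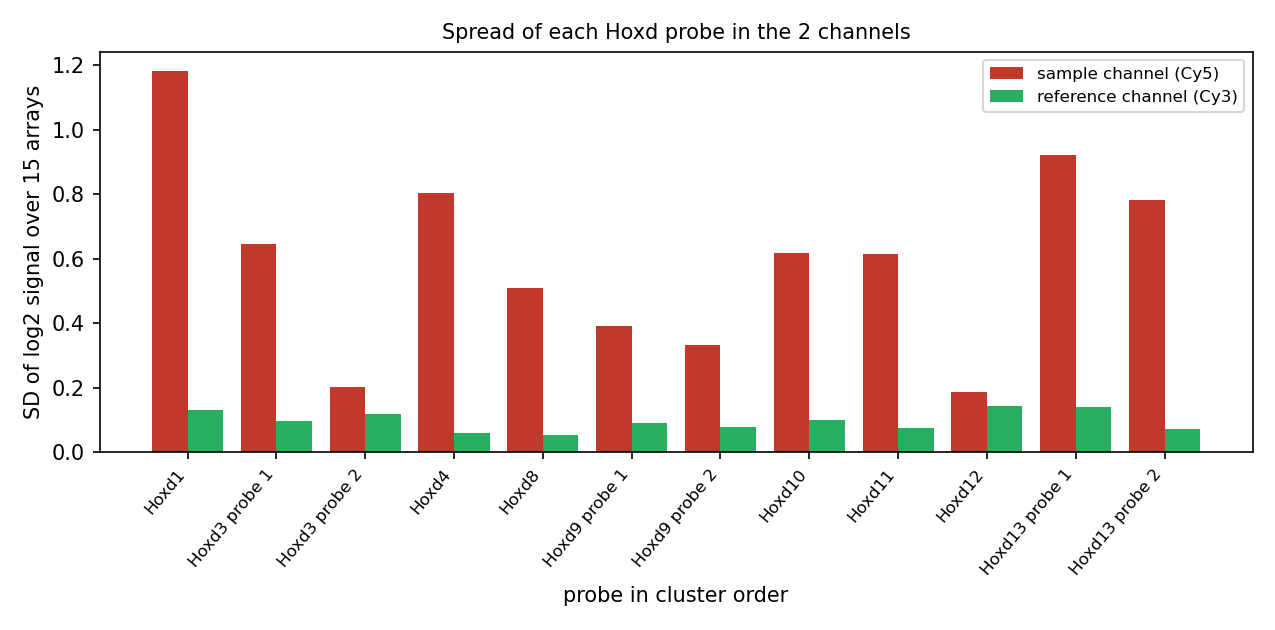
SD of the log2 signal over the 15 arrays (vertical axis) for the 12 Hoxd probes (horizontal axis) in the sample channel (red bars) and the reference channel (green bars). The sample bars reach 1.18 at Hoxd1, and the reference bars stay between 0.05 and 0.14.

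Of the 9 members, 7 fell into 2 blocks that varied together across the arrays, and Hoxd9 and Hoxd12 belonged to neither. All 36 pairs of genes were correlated over the 15 arrays (14 with Hoxd8), using the brighter probe, and 14 had an adjusted permutation p under 0.05 by Pearson's r and 12 by Spearman's rho. How many pairs of other genes would pass was not counted, and sizeable r values were common on these arrays. With the mean of Hoxd1, Hoxd3 and Hoxd4, an r of 0.58 (Lnpk) was higher than that of 91.5% of genes. An r of 0.71 (Chrna1) was higher than that of 97.4%, and an r of -0.56 (Hoxa10) higher than that of 10%. All 6 pairs among Hoxd1, Hoxd3, Hoxd4 and Hoxd8 were positive and passed, with r from 0.64 to 0.95. Hoxd1 and Hoxd3 had r = 0.95 (permutation p = 1e-05, adjusted 0.00018; rho = 0.95, permutation p = 1e-05, adjusted 0.00036), and r = 0.90 without the 2 farthest arrays. Hoxd1 and Hoxd8, with Hoxd3 and Hoxd4 between them, had r = 0.92 (permutation p = 2e-05, adjusted 0.00018; rho = 0.89, permutation p = 8e-05, adjusted 0.00072), and 0.86 without the 2 farthest. The weakest of the 6 was Hoxd4 with Hoxd8 (r = 0.64, permutation p = 0.0134, adjusted 0.0371; rho = 0.53, permutation p = 0.0524, adjusted 0.12), which gave 0.33 without the 2 farthest arrays and so rests on them; its call was lost in 5 of 21 alternatives. Hoxd3 and Hoxd4 share part of their gene model, and whether that adds to their r of 0.87 was not tested.

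At the 5′ end, Hoxd10, Hoxd11 and Hoxd13 formed the other block. Hoxd11 and Hoxd13 had r = 0.90 (permutation p = 1e-05, adjusted 0.00018; rho = 0.87, permutation p = 6e-05, adjusted 0.00072), and 0.86 without the 2 farthest arrays. Hoxd10 and Hoxd11 had r = 0.84 (permutation p = 0.00016, adjusted 0.00096; rho = 0.72, permutation p = 0.00379, adjusted 0.0136), and 0.75 without the 2 farthest. Hoxd10 and Hoxd13 had r = 0.83 (permutation p = 2e-04, adjusted 0.00103; rho = 0.72, permutation p = 0.00351, adjusted 0.0136), and 0.77 without the 2 farthest. Hoxd9 and Hoxd12 were positive with each of these genes and with each other, with r from 0.18 to 0.41, and no such pair passed. About the genotype means, Hoxd9 with Hoxd10 had -0.29, Hoxd10 with Hoxd12 -0.14 and Hoxd11 with Hoxd12 -0.13. The rest of these pairs had 0.04 to 0.10 there.

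Between Hoxd1 to Hoxd8 and Hoxd9 to Hoxd13, with Hoxd9 and Hoxd12 included, 15 of 20 pairs were negative and 5 of those passed. Hoxd10 was the member most opposed to the 3′ genes. With Hoxd1 it had r = -0.73 (permutation p = 0.00208, adjusted 0.00832; rho = -0.81, permutation p = 0.00049, adjusted 0.00353), and -0.82 without the 2 farthest arrays. With Hoxd3 it had r = -0.71 (permutation p = 0.00337, adjusted 0.011; rho = -0.76, permutation p = 0.00157, adjusted 0.00807), and -0.76 without them. With Hoxd4 it had r = -0.71 (permutation p = 0.00315, adjusted 0.011; rho = -0.65, permutation p = 0.0105, adjusted 0.0315), and -0.51 without them. The other pairs past the threshold were Hoxd8 with Hoxd10 (r = -0.61, permutation p = 0.0188, adjusted 0.0484; rho = -0.69, permutation p = 0.00742, adjusted 0.0243; -0.60 without the 2 farthest; call lost in 12 of 21 alternatives, the authors' table and wild type 3 and 4 averaged among them) and Hoxd4 with Hoxd13 (r = -0.63, permutation p = 0.0117, adjusted 0.0352; rho = -0.54, permutation p = 0.042, adjusted 0.116; -0.50 without the 2 farthest; call lost in 5 of 21). Hoxd11 was less opposed in value, at r = -0.40 with Hoxd1 and -0.42 with Hoxd3, and did not pass; the difference between these r values was not tested.

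About the genotype means, r was 0.94 for Hoxd1 with Hoxd3, 0.81 for Hoxd11 with Hoxd13, 0.67 for Hoxd10 with Hoxd11 and -0.74 for Hoxd1 with Hoxd10. About the slide means the same pairs had 0.93, 0.93, 0.84 and -0.72. The correlations were thus about as large within genotypes and within slides for Hoxd1 with Hoxd3 and with Hoxd10. They were smaller within genotypes for Hoxd10 with Hoxd11 and for Hoxd11 with Hoxd13. Pairs of Hoxd4 with other 3′ genes were smaller within slides. They went from 0.73 to 0.59 with Hoxd1, from 0.87 to 0.79 with Hoxd3 and from 0.64 to 0.53 with Hoxd8. About the genotype means these had 0.69, 0.85 and 0.66.

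**Figure D4:**
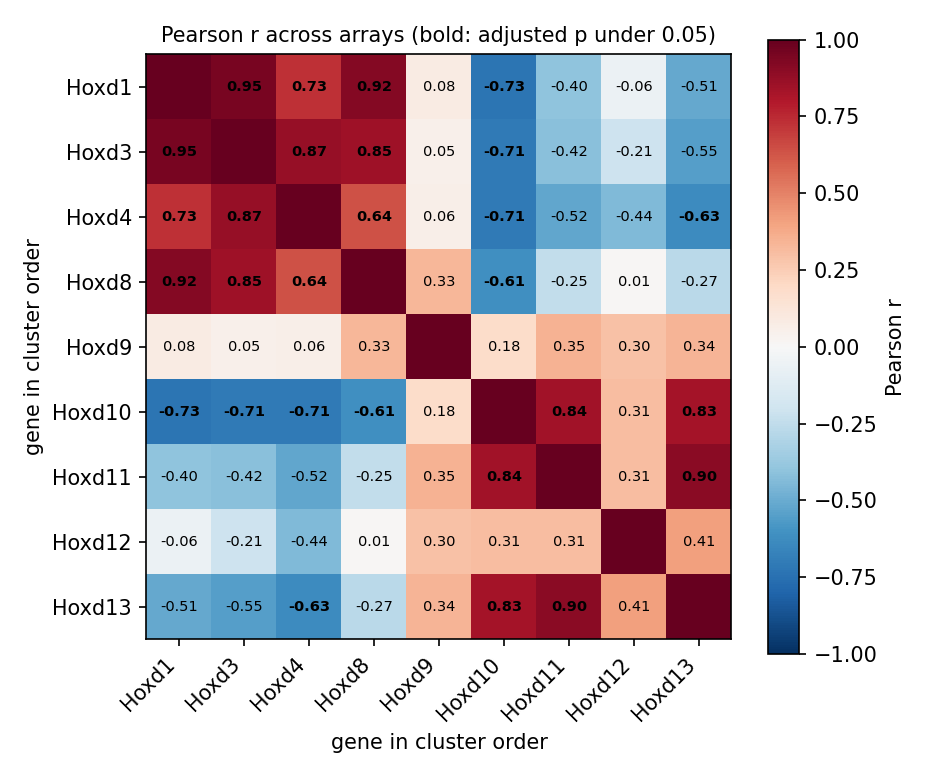
Pearson's r across arrays for each pair of the 9 Hoxd genes in cluster order on both axes, red for positive and blue for negative; bold marks an adjusted permutation p under 0.05. The red square of Hoxd1 to Hoxd8 (0.64 to 0.95) and that of Hoxd10, Hoxd11 and Hoxd13 (0.83 to 0.90) are joined by blue, and Hoxd9 is pale with both.

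No Hoxd probe differed between genotypes after adjustment. In the test of any difference among the 4 genotypes (limma's moderated F test, Benjamini-Hochberg over all 27669 probes with a value in every genotype), 0 of 11 Hoxd probes were called, and 0.00723% of all probes were. At an unadjusted p under 0.05, 4 of 11 were past the threshold, against 2.92% of all probes. They were Hoxd10, Hoxd11 and both Hoxd13 probes, with F of 4.60, 4.47, 4.41 and 4.42 and an adjusted p of 1 each in limma. These probes share the cultures and move together, so they are not 4 separate results. The count of 4 was 0 without double knock-out 3, 1 without double knock-out 1, 2 without stathmin knock-out 4 and 2 with the slide as a block.

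The gap was widest between double knock-out and stathmin knock-out. Hoxd13 probe 1 averaged -1.35 ± 1.00 (SD, n = 3) in double and 0.59 ± 0.65 (SD, n = 4) in stathmin knock-out, a log2 difference of -1.95 (SE 0.54), or 3.85-fold lower, with an adjusted p of 0.9999 in limma. By probe 2, Hoxd13 averaged -1.08 ± 0.49 and 0.45 ± 0.77, a difference of -1.53 (SE 0.42, adjusted p = 0.9999 in limma). Hoxd10 averaged -0.73 ± 0.49 and 0.42 ± 0.49, a difference of -1.15 (SE 0.31, adjusted p = 0.9999 in limma), and Hoxd11 -0.80 ± 0.48 and 0.26 ± 0.38, a difference of -1.06 (SE 0.29, adjusted p = 0.9999 in limma). In all 4 probes no double knock-out array reached the lowest stathmin knock-out array, which held for 2.68% of all probes in that direction and 4.95% in either. With limma, 0 of 11 Hoxd probes were called here, as was 0% of all probes, and 4 of 11 had an unadjusted p under 0.05, against 3.54% of all probes. Within the 3 slides that hold both genotypes, each of these probes was lower in double knock-out on 3 of 3. The differences were -2.70 to -0.23 for Hoxd13 probe 1, -2.09 to -0.20 for probe 2, -2.13 to -0.42 for Hoxd10 and -1.58 to -0.10 for Hoxd11. In the same comparison Hoxd1, Hoxd3 and Hoxd4 lay 1.15 (SE 0.83), 0.66 (SE 0.47) and 0.95 (SE 0.53) higher in double knock-out, none past an unadjusted p under 0.05. Hoxd4 was higher on 3 of 3 slides. Hoxd1 and Hoxd3 were higher on 2 of 3, and on the slide of stathmin knock-out 1 they differed by -0.72 and -0.35. Without stathmin knock-out 1, the count of 4 was 7 and the Hoxd1 difference was 2.04.

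Against wild type, Hoxd4 was higher in value in double knock-out and Hoxd10, Hoxd11 and Hoxd13 were lower. Hoxd4 averaged 0.35 ± 0.19 (SD, n = 3) against -0.65 ± 0.31 (SD, n = 4), a log2 difference of 1.00 (SE 0.53) with an adjusted p of 0.9999 in limma. Hoxd13 probe 1 differed by -1.29 (SE 0.54) and Hoxd11 by -0.70 (SE 0.29), with an adjusted p of 0.9999 each in limma. Within slides, Hoxd4 was higher and Hoxd10, Hoxd11 and Hoxd13 probe 2 were lower on 3 of 3. Hoxd13 probe 1 was lower on 2 of 3 and differed by 0.07 on the slide of double knock-out 2. Hoxd4 was without overlap above wild type, and Hoxd10 and Hoxd13 probe 2 without overlap below, against 3.07% of all probes above and 3.5% below. In limma 0 of 11 Hoxd probes were called, against 0.00361% of all probes, and 2 of 11 had an unadjusted p under 0.05, against 2.26%. Without double knock-out 3 the Hoxd11 difference was -0.45, and without double knock-out 1 that of Hoxd13 probe 1 was -0.93. The count of 2 was 0 without double knock-out 1 or 3 or wild type 1, 1 without wild type 2 or with the slide as a block, 4 without double knock-out 2, and 5 without p27 knock-out 2, with array weights or with only the genotypes compared.

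Double knock-out against p27 knock-out gave 0 of 11 calls in limma, against 0.00361% of all probes, and 3 of 11 at an unadjusted p under 0.05, against 2.89%. These were Hoxd4, at 1.21 (SE 0.53), Hoxd10, at -0.72 (SE 0.31), and Hoxd13 probe 2, at -0.94 (SE 0.42), each with an adjusted p of 0.9999 in limma. The count of 3 was 0 without p27 knock-out 2, double knock-out 1 or double knock-out 3 and with only the genotypes compared, 1 with the slide as a block, and 5 with the replicate block or the sample channel alone. Without p27 knock-out 2, Hoxd4 differed by 0.68 and Hoxd13 probe 2 by -0.59, and without double knock-out 3 Hoxd10 differed by -0.46. Within slides, Hoxd4 was higher and Hoxd10 lower on 3 of 3. On the slide of double knock-out 2, Hoxd13 was higher than in p27 knock-out, by 0.81 for probe 1 and 0.08 for probe 2. Hoxd3 and Hoxd4 did not overlap, higher in double knock-out, against 1.63% of all probes. For Hoxd3 the gap was narrow, from 0.115 on the highest p27 knock-out array to 0.123 on the lowest double knock-out array. Its unadjusted p was 0.1428 in limma. These 3 comparisons share the double knock-out arrays and are not separate evidence of them.

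For p27 knock-out against wild type, limma called 0 of 11 probes, against 0% of all, and 0 of 11 had an unadjusted p under 0.05, against 5.82%; differences went from -0.38 (Hoxd1, SE 0.77) to 0.24 (Hoxd9 probe 1, SE 0.21). The 95% interval for Hoxd1 ran from -2.04 to 1.27 and that for Hoxd9 probe 1 from -0.22 to 0.69, so sizeable differences in Hoxd1 could not be told from none. Without p27 knock-out 2 the Hoxd1 difference was 0.042. For stathmin knock-out against wild type, limma called 0 of 11, against 0.00723% of all, and 0 of 11 had an unadjusted p under 0.05, against 4.8%; 8 of 11 probes were higher in value, with a median difference of 0.29 against 0.0026 over all probes. By gene, 6 of 9 were higher, with a median of 0.11. Hoxd12, which entered the tests through this genotype, is among them, and its own difference is the median of 0.11. Without it, 7 of 10 probes were higher, with a median difference of 0.33. The largest was Hoxd13 probe 1, at 0.66 (SE 0.50). For the interaction, the double knock-out's departure from the sum of the single ones, limma called 0 of 11, against 0% of all, and 4 of 11 had an unadjusted p under 0.05, against 7.26%: Hoxd10 at -1.24 (SE 0.42), Hoxd11 at -0.99 (SE 0.40), Hoxd13 probe 1 at -1.71 (SE 0.74) and probe 2 at -1.59 (SE 0.57), each with an adjusted p of 0.6815 in limma. That count of 4 was 2 without wild type 4, p27 knock-out 2, stathmin knock-out 2 or double knock-out 3, and 7 without stathmin knock-out 1.

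**Figure D5:**
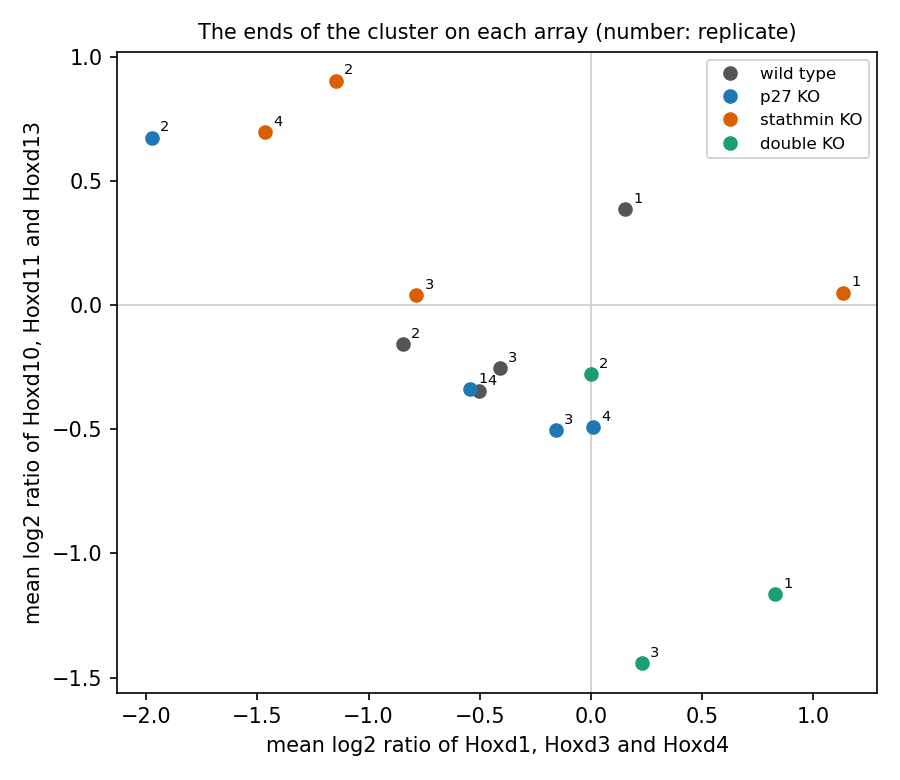
Mean log2 ratio of Hoxd10, Hoxd11 and Hoxd13 (vertical axis) against that of Hoxd1, Hoxd3 and Hoxd4 (horizontal axis) on each array, coloured by genotype, with the replicate number beside each point. Double knock-out 1 and 3 lie to the lower right, and double knock-out 2 lies nearest to p27 knock-out 3 and 4. Array 2 of p27 knock-out lies with arrays 2 and 4 of stathmin knock-out to the upper left, and stathmin knock-out 1 far to the right at 1.13.

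The balance between the ends was set out per culture as the mean log2 ratio of Hoxd1, Hoxd3 and Hoxd4 minus that of Hoxd10, Hoxd11 and Hoxd13. It was -0.23, -0.69, -0.16 and -0.16 in wild type, -0.21, -2.65, 0.35 and 0.50 in p27 knock-out, 1.08, -2.05, -0.83 and -2.16 in stathmin knock-out, and 2.00, 0.28 and 1.67 in double knock-out. All wild-type arrays were below 0 and all double knock-out arrays above it, and the single knock-outs held arrays on both sides. The genes of this balance were chosen with these values known, and it carries no test.

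Genes with a like pattern were ranked by r over the 15 arrays among 14067 genes. The mean of Hoxd9 to Hoxd13 used here includes Hoxd9 and Hoxd12, which belonged to neither block. Nearest to it were Robo2, an axon guidance receptor (r = 0.91), Vill, a villin-like protein (0.91), the collagen genes Col18a1 (0.90) and Col6a1 (0.89), and Plce1, a phospholipase C (0.89). Robo2 went from -1.45 on double knock-out 3 to 1.58 on stathmin knock-out 2. Nearest to the mean of Hoxd1 to Hoxd8 were Ubqln4, a ubiquilin (0.92), Cntfr, a cytokine receptor subunit (0.89), Smim10l2a (0.88), Prss16, a serine protease (0.88), and Crabp1, a retinoic acid binding protein (0.88). Crabp1 had the widest range of these, from -2.85 on p27 knock-out 2 to 1.24 on double knock-out 1. These genes were picked as the highest of many, and their r is a description.

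Posterior genes of the Hoxa cluster stood with the posterior Hoxd genes. With the mean of Hoxd10, Hoxd11 and Hoxd13, Hoxa13 had r = 0.85, higher than 99.9% of genes ranked, Hoxa10 0.83 and Hoxa11 0.75, while Hoxa9 had 0.16. Hoxa13 lay at 1.76 on p27 knock-out 2, 1.45 on stathmin knock-out 2 and 0.90 on stathmin knock-out 4, its 3 highest arrays, and at -1.23 and -1.34 on double knock-out 1 and 3, its lowest. Hoxc9 and Hoxc10 stood with the 3′ genes instead, at r = 0.86 and 0.82 with the mean of Hoxd1, Hoxd3 and Hoxd4, although their paralogues Hoxd9 and Hoxd10 did not. Hoxc9 was at -3.78 on p27 knock-out 2, -1.92 on stathmin knock-out 2 and -1.75 on stathmin knock-out 4, and at -0.73 or above elsewhere. Hoxc13 had r = 0.20 with the 3′ mean and -0.27 with the 5′ mean.

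Genes around the cluster differed in how they stood to it. Evx2, the homeobox gene beside Hoxd13, was well above background on 15 of 15 arrays and had r = -0.04 with the 3′ mean and -0.05 with the 5′ mean. Lnpk, past Evx2, had r = 0.58 and -0.32, and Mtx2, the first gene past Hoxd1, 0.48 and -0.49. Farther out, Chrna1, a muscle acetylcholine receptor subunit, had 0.71 and -0.63, Hnrnpa3, an RNA-binding protein gene, 0.57 and -0.70, and Chn1, a GTPase-activating protein for Rac, 0.63 and -0.18. The remaining neighbours did not follow these. Gpr155 had -0.31 and 0.65, Nfe2l2 -0.43 and 0.21, and Cir1 -0.28 and 0.08. Agps had -0.24 and -0.37, Wipf1 0.06 and -0.18, Atf2 0.11 and 0.11, and Scrn3 0.15 and -0.10. The mean of the 13 neighbours tested had 0.58 and -0.50. Hoxd3os1, a transcript that overlaps Hoxd3, had 0.75 and -0.63, and a probe there need not separate it from Hoxd3. Of the 13 neighbours tested, limma called 0 in each of the 6 comparisons, against 0 to 0.00723% of all probes. At an unadjusted p under 0.05 in limma, each comparison had 0 or 1 in each direction, against 2.26 to 7.26% of all probes. Double against stathmin knock-out and the interaction each had 1 higher and 1 lower, against 3.54 and 7.26%.

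Lists of related genes were read beside the members, by the mean log2 ratio of their tested genes. Limma called 0 genes in any list in any of the 6 comparisons. For double against stathmin knock-out, genes past an unadjusted p under 0.05 numbered 0 higher and 3 lower of 19 limb patterning genes, 0 and 2 of 11 in the Hoxa cluster, and 0 and 0 of 9 in Hoxb and of 7 in Hoxc, against 3.54% of all probes in either direction. None of 9 cofactors of the PBX and MEIS kind and none of 19 Polycomb and trithorax regulators passed that mark there, and 0 higher and 1 lower of 9 genes of the retinoic acid, FGF, WNT and caudal inputs did. For the interaction, 4 higher and 0 lower of 7 in Hoxc passed it, 3 and 1 of 11 in Hoxa and 1 and 0 of 9 in Hoxb. Limb patterning had 0 and 2 of 19, Polycomb and trithorax 0 and 1 of 19, and the cofactors and inputs 0 and 0 of 9 each. The Hoxd genes had 0 and 3 of 9, against 7.26% of all probes. Over the arrays, the limb patterning mean had r = 0.86 with the 5′ Hoxd mean and -0.49 with the 3′ mean. The Hoxa mean had -0.11 with the 3′ mean and 0.01 with the 5′ mean. The Hoxc and Hoxb means had 0.79 and 0.70 with the 3′ mean and -0.69 and -0.72 with the 5′ mean, and the cofactors and the Polycomb and trithorax genes 0.52 and 0.06 with the 3′ mean and -0.20 and 0.36 with the 5′ mean.

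Marker lists of cell types were read in the same way. The fibroblast mean, over 10 of 10 markers, had r = 0.69 with the 5′ Hoxd mean and -0.57 with the 3′ mean, from -0.43 on wild type 3 to 1.66 on p27 knock-out 2. The cartilage mean, over 6 of 8 markers, had 0.73 and -0.41, from -1.11 on double knock-out 1 to 1.06 on stathmin knock-out 2. The skeletal muscle mean, over 5 of 8, had -0.62 and 0.49, from -1.53 on p27 knock-out 2 to 0.59 on wild type 2. Macrophage and blood markers, over 9 of 10, had 0.00 and -0.42, and from -2.92 to 2.46 the widest range of these lists, highest on p27 knock-out 2. The epithelial mean, over 7 of 10, had -0.36 and 0.33, the endothelial, over 4 of 7, -0.14 and -0.02, and the neuronal and glial, over 7 of 9, 0.03 and -0.14. Of cartilage and muscle markers, 1 each was above background on no array. The part of these cell types in the Hoxd pattern was not tested.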

How the data were processed

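The authors deposited scanner files of 15 arrays whose spot signals are in units of intensity, written by Feature Extraction 9.1.3.1 without background subtraction, per the file headers. The deposited ratio of that software is a log10 of red over green. The authors' value table holds log2 ratios whose normalization is not given in the sources used here; its scale and direction were read from its correlation with the scanner ratio (0.821 to 0.936 per array), and its column medians were 0.0039 to 0.052. Per the labels, samples were in Cy5 and the pooled reference in Cy3, with no dye swap.

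In limma 3.58.1 under R 4.3.3, normexp background correction (offset 50) and loess within arrays were applied, spots marked as outliers were left out and replicate spots averaged. Of 41174 probes, 27700 were tested, those whose sample spot was well above background on 3 arrays or more of some genotype. The model held a mean for each genotype over all 15 arrays, leaving 11 residual degrees of freedom, and two-sided moderated p-values were adjusted by Benjamini-Hochberg over all probes. The number of arrays limits the precision. Correlations used 100000 permutations, two-sided, adjusted over 36 pairs. Intervals are at 95%. The fit was tested on simulated data.

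The array files name no build, and RefSeq's table gave current symbols: by accession for 18206 tested probes, by current symbol for 4017 and by older symbol for 1906; 3571 kept the file's name. Named genes were all Hoxd probes, Cdkn1b, Stmn1, locus neighbours, and Hoxa and Hoxc genes of groups 9 to 13. The 5 genes nearest in pattern to the mean of Hoxd1 to Hoxd8, and the 5 nearest to that of Hoxd9 to Hoxd13, were also named. Probes of Hoxc11 and Hoxc12 gave no tested value. Members and lists were chosen with earlier results of these data known.

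Residuals of arrays with the same replicate number correlated at -0.259 to 0.415, with 12 of 21 pairs over 0.1. The main fit did not pair samples by number, and a replicate block was run as an alternative. Whether the numbers mark shared batches was not tested. Alternatives covered background correction, normalization, the authors' table, the filter on dim probes, probe choice, replicate and slide blocks, array weights, variance model, arrays in the fit, wild type 3 and 4 averaged, a term for sex-linked genes, the sample channel alone and leaving out each array.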

Additional observations from a re-analysis of the deposited data

Results flagged for a closer look

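In the 33 groups of 4 arrays that the 11 tested Hoxd probes allow, 5 had an array set far from the other 3 by Dixon's ratio of gap to range; chance gives about 1 in 20 such groups, and the probes are not independent. In stathmin knock-out, array 1 stood above the others for Hoxd1, at a log2 ratio of 1.85, and for Hoxd3 probe 1, at 1.15. In p27 knock-out, array 2 stood below for Hoxd3 probe 1, at -1.41, and above for Hoxd13 probe 2, at 0.91. In the same genotype, array 4 stood above for Hoxd9 probe 1, at 0.43. Groups of 3 were not examined in this way.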

How the results depend on the processing

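The count of Hoxd probes called by limma was 0 in the test over all genotypes and in each of the 6 comparisons, and stayed 0 under each of the 30 or 31 alternatives run for it, leaving out each array included (0 to 0). The named differences between genotypes kept their direction in each alternative run, except that of Hoxd1 in p27 knock-out against wild type, which was 0.0079 with array weights and went from -0.84 without p27 knock-out 4 to 0.042 without p27 knock-out 2 as each array was left out; none passed after adjustment. For Hoxd10 in double against stathmin knock-out, the log2 difference went from -1.41 to -0.89 and the adjusted p from 0.238 to 1. With the replicate number as a block, that difference was -1.14 (adjusted p 0.528 in limma), and 0 Hoxd probes were called. The block changed no Hoxd call, but it lowered some unadjusted p-values. For Hoxd13 probe 2 in the same comparison, the unadjusted p in limma went from 0.002866 to 0.000112. Its difference was -1.51 with the block (SE 0.25, adjusted p 0.474 in limma). With wild type 3 and 4 averaged, the count was 0 as well.

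Of 36 gene pairs, 14 passed; alternatives gave 10 to 19, and leaving out each array 10 to 19, the lowest without stathmin knock-out 4 and the highest without stathmin knock-out 1. With wild type 3 and 4 averaged, 13 passed. No pair that passed reversed. The pairs that lost their call in some alternative were Hoxd8 with Hoxd10 (r from -0.77 to -0.54), Hoxd4 with Hoxd13 (-0.70 to -0.55), Hoxd4 with Hoxd8 (0.51 to 0.74) and, without stathmin knock-out 4, Hoxd4 with Hoxd10 (-0.64, adjusted p 0.061). Hoxd4 with Hoxd8 did so without p27 knock-out 2 (0.51), stathmin knock-out 1 (0.56) or 4 (0.57), wild type 2 (0.63) or double knock-out 3 (0.63). Hoxd4 with Hoxd13 did so about the genotype means (-0.57) and without p27 knock-out 2 (-0.59), stathmin knock-out 4 (-0.57) or double knock-out 1 (-0.55) or 3 (-0.59). Hoxd8 with Hoxd10 did so with wild type 3 and 4 averaged, in the authors' table, without background subtraction, with the sample channel alone, and without p27 knock-out 2, 3 or 4, stathmin knock-out 3 or 4, wild type 3 or 4 or double knock-out 2. The cause was not tested. The count of probes with a residual SD above the median was 8, and 8 to 10 in 3 alternatives. Signal over background limits Hoxd1, Hoxd3 and Hoxd12. The Hoxd1 difference in double against stathmin knock-out, 1.15 in the main fit, was 2.61 with the ratio of the scanner software.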
